A study of Mus musculus with 6 samples.

Results

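The 32 genes described here encode the route by which a cell burns fatty acids, together with the PPAR receptors and the coactivator PGC-1β that regulate it. They were taken by symbol from a list, and all 32 were found among the 55421 Ensembl genes of the deposited count table. A gene was kept where at least 3 libraries held 10 or more counts, which 31 of the 32 genes did, as did 14488 of all genes, and each of the 31 had 10 or more counts in all 6 libraries. The exception was Ppara, which was not tested. The libraries were made from tumour-associated macrophages (TAMs), sorted at day 15 from fibrosarcomas, named M17 in the labels and MC17-51 in the study's methods, growing under the skin of young adult mice. The labels give these TAMs as CD11b+F4/80+. The methods state a gate of live CD45+CD11b+F4/80+Ly6G- cells for TAMs of mice with a floxed Shp2 gene, and whether the same gate was used here is not given in the sources used here. The 3 Pdcd1f/f libraries came from control mice whose Pdcd1 gene, which encodes the inhibitory receptor PD-1, was flanked by loxP sites and intact. The 3 Pdcd1f/fLysMcre libraries came from mice with the same floxed alleles and Cre recombinase under the lysozyme (LysM) promoter, which removes Pdcd1 in myeloid cells in general and not in macrophages alone. The comparison asked whether the pathway as a whole was lower together with Cpt1a in the Pdcd1f/fLysMcre TAMs.

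Fatty acids are first joined to coenzyme A, then carried into mitochondria on carnitine, and shortened there by repeated rounds of dehydrogenation, hydration, dehydrogenation and thiolysis. CPT1A loads long-chain acyl groups onto carnitine at the outer mitochondrial membrane and is inhibited by malonyl-CoA, the first product of fatty acid synthesis. Peroxisomes carry out a related chain-shortening pathway for very long and branched chains. PPAR receptors pair with RXR on DNA, are activated by fatty acids and their derivatives, and are known in macrophages for their part in lipid handling and in alternative activation.

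Total counts ranged from 41833823 to 51417209 per library, at which 3 counts correspond to between 0.0583 and 0.0717 CPM (counts scaled to an equal library total). Pdcd1 itself had 10 to 15 counts in controls and 7 to 16 in Pdcd1f/fLysMcre TAMs, so counts per gene did not show the deletion. Lyz2, the gene into which this Cre is inserted, had 189889 to 242873 counts in controls and 418 to 503 in the libraries that carry it. The controls carry no Cre, so Cre and the lower Lyz2 cannot be told apart from the deletion of Pdcd1 in any difference between the genotypes. Pdcd1f/f replicate 1 and Pdcd1f/fLysMcre replicate 2 stood apart from the other libraries by the GC content of their counted transcripts: the Spearman coefficient across 14454 genes between GC content and a library's deviation from the gene's mean was -0.60 and -0.50, against 0.11 to 0.53 in the others. Results are therefore also given without these libraries or with offsets for GC content and length. Summed levels of 4 Y-linked transcripts were 1545 to 1914 normalized counts in Pdcd1f/f and 6267 to 7233 in Pdcd1f/fLysMcre libraries, while Xist was counted in every library and was lower in the latter, with a change of -49.7% (edgeR adjusted p = 0.0098). Xist lost the call without Pdcd1f/fLysMcre replicate 2 and without both libraries that stood apart, where the 4 Y-linked transcripts were still called higher. The study's methods state that all experiments used as many male as female mice, but the makeup of each library is not given, so a difference in sex and the genotype cannot be told apart, and whether animals were pooled is not given in the sources used here. P-values measure the spread between these libraries. All 9 macrophage markers were tested, and their summed level was 315593 to 376914 in Pdcd1f/f and 254889 to 278389 in Pdcd1f/fLysMcre libraries. Of these markers 6 were lower at an edgeR adjusted p under 0.05 (Adgre1, Csf1r, Mertk, C1qa, C1qb, C1qc), and 1 (Mertk) without Pdcd1f/f replicate 2 or without Pdcd1f/fLysMcre replicate 1, 3 without Pdcd1f/fLysMcre replicate 2 and 5 to 7 without each of the others.

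Of the 31 genes tested, 3 differed between the genotypes. Cpt1a and Acox3, the latter a peroxisomal acyl-CoA oxidase, were lower in Pdcd1f/fLysMcre TAMs, and Acsl1, an acyl-CoA synthetase, was higher. The other 28 did not pass the test, including all 9 genes of the mitochondrial β-oxidation spiral tested here. The test was edgeR's two-sided quasi-likelihood test on the raw counts with Benjamini-Hochberg adjustment over all 14469 genes tested and a threshold of 0.05, which called 786 genes (5.43%), 436 lower (3.01%) and 350 higher (2.42%). The 3 genes called are 9.68% of the 31 genes, with 2 lower (6.45%) and 1 higher (3.23%), a share that so small a number of genes cannot set apart from the background. The log2 fold changes ran from -0.47 to 0.33 with a median of -0.07, against -0.0026 over all genes tested, and 22 were negative (71.0%, against 50.4% of all genes). The study itself reported lower Cpt1a in these TAMs, which was known when the genes were chosen, so the shares that include it are not independent of that choice. Without Cpt1a the median of the other 30 was -0.06, with 1 called lower (3.33%) and 1 higher (3.33%). In 6 of these 30 (20%) all Pdcd1f/fLysMcre libraries lay below all Pdcd1f/f libraries. In 7 genes all Pdcd1f/fLysMcre libraries lay below all Pdcd1f/f libraries (22.6%, against 13.1% of all genes), in 1 they lay above (3.23%, against 14.1%), and in 23 the groups overlapped. At an unadjusted p under 0.05, 11 of the 31 genes differed (35.5%, against 24.2% of all genes). The counts moved with single libraries: 10 of the genes (32.3%) passed without Pdcd1f/f replicate 1, where 21.6% of all genes were called. Without Pdcd1f/f replicate 2 or without Pdcd1f/fLysMcre replicate 1 it was 1 gene (3.23%), with 1.51% of all genes called in each. Without each of the others 2 passed (6.45%), with 2.38% to 3.56% of all genes called. Leaving out both libraries that stood apart by GC content gave 11 genes (9 lower, 2 higher), with 26.2% of all genes called. These libraries hold RNA from bulk populations, so fewer cells of a type and less RNA per cell cannot be told apart.

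**Figure D1:**
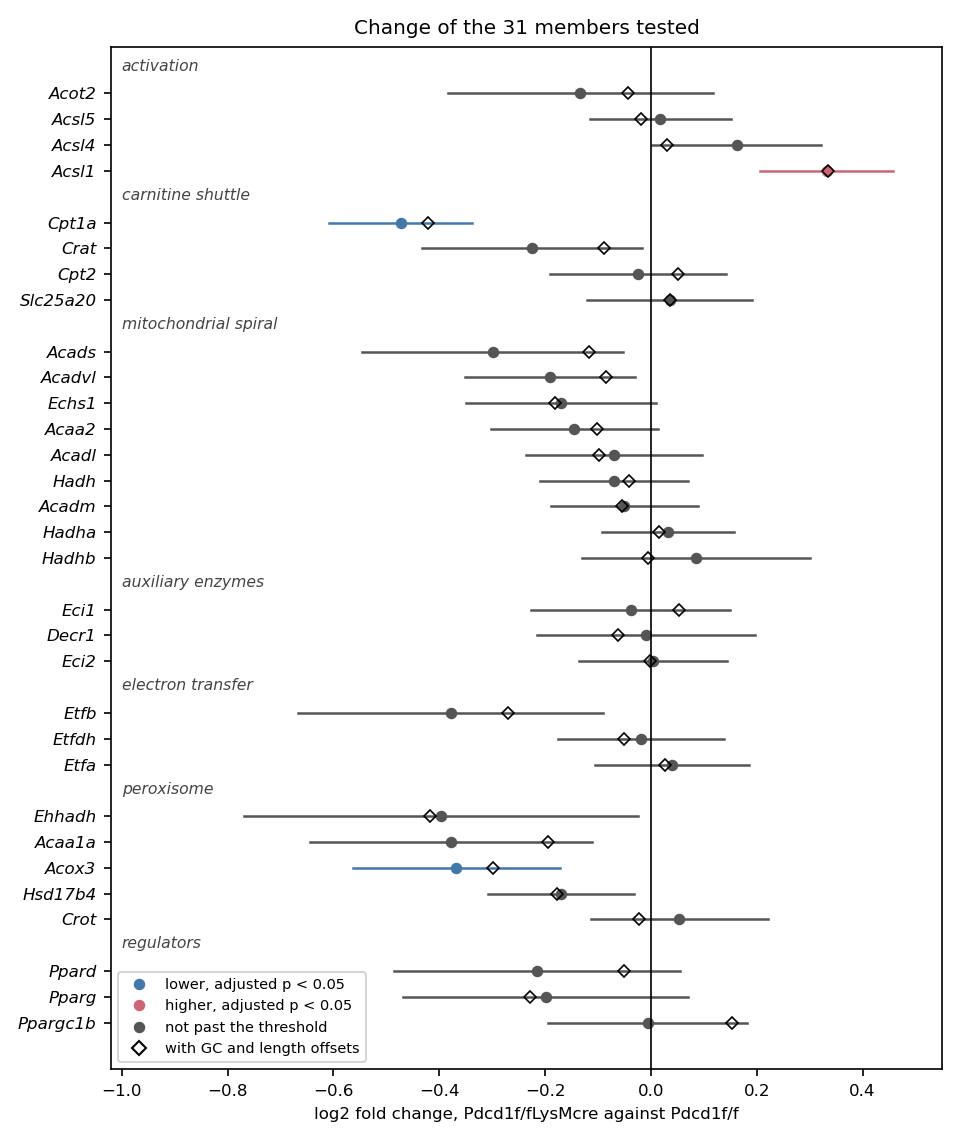
Log2 fold change of each of the 31 genes tested (x axis, Pdcd1f/fLysMcre against Pdcd1f/f, n = 3 libraries each), grouped by role; filled points are the edgeR estimates with bars for the 95% interval, and open diamonds the estimates with offsets for GC content and length. Cpt1a at -0.47 and Acsl1 at 0.33 lie at the ends, and the genes of the mitochondrial spiral lie between -0.30 and 0.09.

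Cpt1a (ENSMUSG00000024900, chromosome 19, 3322334 to 3385733, plus strand, GRCm38) had 5127, 5377 and 5458 normalized counts in Pdcd1f/f replicates 1 to 3, the counts being divided by a size factor per library. In Pdcd1f/fLysMcre replicates 1 to 3 it had 3725, 3810 and 3948. The groups were well separated, and the spread within each was small beside the distance between them. Mean levels fell from 5321 ± 172 to 3827 ± 112 (SD, n = 3 each), a change of -28.0% and a log2 fold change of -0.47 (SE 0.06, 95% interval -0.61 to -0.34, edgeR adjusted p = 0.00183). This was the lowest log2 fold change among the 31 genes. Cpt1a passed the threshold in all 18 alternative analyses, with log2 fold changes of -0.51 to -0.42, and in each of the 6 that left out 1 library.

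The other parts of the carnitine shuttle did not pass the test. CPT2 regenerates acyl-CoA on the inner face of the inner membrane, and Cpt2 had 877, 880 and 859 normalized counts in Pdcd1f/f and 855, 875 and 838 in Pdcd1f/fLysMcre libraries. The groups overlapped, with a log2 fold change of -0.02 (SE 0.07, 95% interval -0.19 to 0.14). Slc25a20, the carnitine-acylcarnitine carrier of the inner membrane, had 1944, 1820 and 1981 against 1901, 2065 and 1913 normalized counts. Its groups overlapped as well, with a log2 fold change of 0.04 (SE 0.07, 95% interval -0.12 to 0.19). Crat, which transfers short acyl groups to and from carnitine, had 2661, 3088 and 3242 against 2716, 2291 and 2674 normalized counts and a log2 fold change of -0.22 (SE 0.09, edgeR adjusted p = 0.174). The lowest Crat value of the controls was in Pdcd1f/f replicate 1, without which the log2 fold change was -0.31 (edgeR adjusted p = 0.0181), and with offsets for GC content and length it was -0.09 (edgeR adjusted p = 0.204). Leaving out any 1 of the other libraries gave edgeR adjusted p of 0.171 to 0.466 for Crat.

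Ratios of raw counts within a library do not depend on how libraries are scaled to each other, and they compared Cpt1a directly with the steps after it. Cpt1a counts per Cpt2 count were 5.84, 6.11 and 6.36 in Pdcd1f/f and 4.36, 4.35 and 4.71 in Pdcd1f/fLysMcre libraries, a log2 difference of -0.45 (SE 0.05). Per Slc25a20 count they were 2.64, 2.95 and 2.75 against 1.96, 1.85 and 2.06, a log2 difference of -0.51 (SE 0.07). In both ratios the groups were separate. Per count of Acadvl, the very-long-chain acyl-CoA dehydrogenase that opens the spiral, they were 1.83, 1.71 and 1.70 against 1.39, 1.46 and 1.45, a log2 difference of -0.28 (SE 0.04). Per count of Hadha, the α subunit of the trifunctional protein, they were 0.666, 0.729 and 0.729 against 0.492, 0.494 and 0.508, a log2 difference of -0.51 (SE 0.05). Each of these 4 ratios was lower in all Pdcd1f/fLysMcre libraries, with an exact two-sided permutation p = 0.1, the smallest that 3 libraries against 3 can give (0.125 after Benjamini-Hochberg adjustment over 5 ratios). Hadha to Hadhb, the subunits of the same complex, was 2.57, 2.69 and 2.99 against 2.62, 2.36 and 3.02, a log2 difference of -0.05 (SE 0.12, exact permutation p = 0.8). A ratio of counts is not a ratio of molecules, since the genes differ in length. Nor does a ratio remove a library's dependence on GC content, which was 52.0% for Cpt1a, 52.9% for Cpt2, 49.5% for Slc25a20, 54.6% for Acadvl and 48.2% for Hadha. Within each genotype Hadha to Hadhb was lowest in the library that stood apart by GC content.

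**Figure D2:**
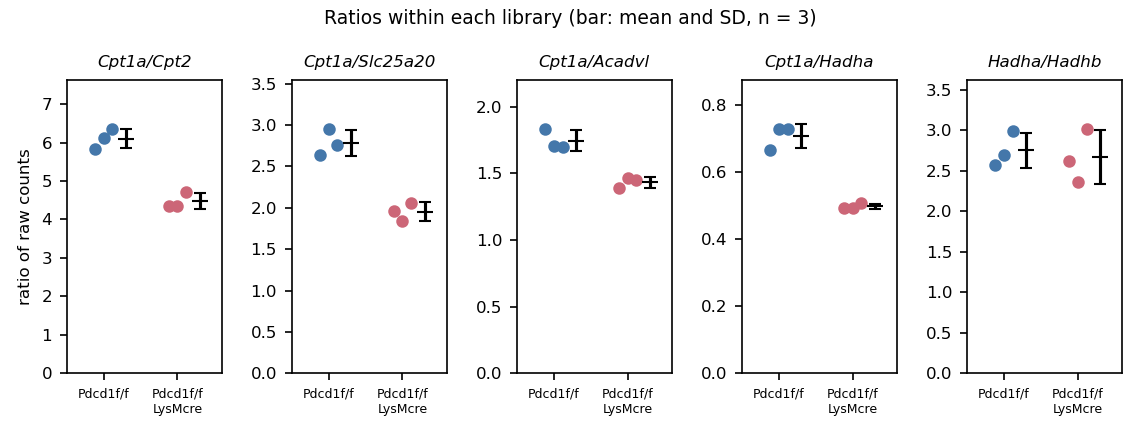
Ratio of raw counts of the genes named above each panel (y axis, no unit, starting at 0) in the libraries of each genotype; points are libraries 1 to 3, and bars give the mean and SD (n = 3). The 4 ratios with Cpt1a are separate between the genotypes, and Hadha to Hadhb overlaps.

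Among the genes that activate fatty acids, Acsl1 (ENSMUSG00000018796, chromosome 8, 46471037 to 46536051, plus strand), a long-chain acyl-CoA synthetase, moved opposite to Cpt1a. It had 6071, 5812 and 6041 normalized counts in Pdcd1f/f and 7427, 7546 and 7560 in Pdcd1f/fLysMcre replicates 1 to 3. The groups were separate. Mean levels rose from 5975 ± 142 to 7511 ± 73.1 (SD, n = 3 each), a change of 25.9% and a log2 fold change of 0.33 (SE 0.06, 95% interval 0.21 to 0.46, edgeR adjusted p = 0.00801). Its call was lost without Pdcd1f/f replicate 2 (edgeR adjusted p = 0.0806) and without Pdcd1f/fLysMcre replicate 1 (edgeR adjusted p = 0.0587), with log2 fold changes of 0.31 and 0.34, and it stood in the other 16 of 18 alternatives. Acsl4, which prefers arachidonic acid and lies on the X chromosome, had 5731 to 6534 against 6352 to 7140 normalized counts and a log2 fold change of 0.16 (SE 0.07, edgeR adjusted p = 0.201). Without Pdcd1f/f replicate 1 it was 0.21 (edgeR adjusted p = 0.0365), and with the offsets 0.03. Acsl4 had edgeR adjusted p of 0.174 to 0.521 when any 1 of the other libraries was left out. Acsl5, a synthetase of mitochondria and endoplasmic reticulum, had 9170 to 9451 against 9157 to 9903 normalized counts and a log2 fold change of 0.02 (SE 0.06). Acot2, a mitochondrial thioesterase that releases the fatty acid from coenzyme A again, had 330 to 358 against 273 to 328 normalized counts. Its groups did not overlap, but its log2 fold change of -0.13 (SE 0.11) did not pass, and reads can be shared with its near copy Acot1.

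The mitochondrial spiral was described by 9 genes, of which 0 passed the edgeR test, where 5.43% of all genes did. At an unadjusted p under 0.05 there were 2 (22.2%, against 24.2% of all genes). DESeq2 called 0 of the 9 with either adjustment. With Benjamini-Hochberg it called 12.8% of all genes with an adjusted p, and with Storey adjustment 13.5% of all genes tested. Limma-trend called 0 as well, where it called 4.57% of all genes. So small a number of genes cannot set a count of 0 apart from these shares. The median log2 fold change of the 9 genes was -0.07. Without both libraries that stood apart by GC content 2 of the 9, Acads and Acadvl, were called, where 26.2% of all genes were. Neither this count nor that at an unadjusted p stood above the background. Chain length is divided among the acyl-CoA dehydrogenases, which carry out the first oxidation. Acadvl, for very long chains, had 2795, 3152 and 3211 normalized counts in Pdcd1f/f and 2683, 2604 and 2724 in Pdcd1f/fLysMcre libraries. All Pdcd1f/fLysMcre libraries lay below the controls, with a log2 fold change of -0.19 (SE 0.07, edgeR adjusted p = 0.143). It was -0.26 (edgeR adjusted p = 0.0158) without Pdcd1f/f replicate 1, the lowest of the controls, and -0.09 with the offsets. Leaving out any 1 of the other libraries gave edgeR adjusted p of 0.172 to 0.436 for Acadvl. Acadl, for long chains, ran from 3969 to 4506 against 3801 to 4301 normalized counts, with a log2 fold change of -0.07 (SE 0.07). Acadm, for medium chains, ran from 3250 to 3432 against 3121 to 3328, with a log2 fold change of -0.05 (SE 0.06). Both overlapped between the genotypes. Acads, for short chains, had 1515, 1772 and 1983 against 1446, 1260 and 1569 normalized counts and the lowest log2 fold change of the spiral, -0.30 (SE 0.11, edgeR adjusted p = 0.137). Its lowest control was again Pdcd1f/f replicate 1, without which the value was -0.40 (edgeR adjusted p = 0.0116), and with the offsets it was -0.12 (edgeR adjusted p = 0.121). Acads had edgeR adjusted p of 0.102 to 0.416 when any 1 of the other libraries was left out.

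The genes of the later steps did not pass the test, with log2 fold changes from -0.17 to 0.09. Hadha and Hadhb, which encode the trifunctional protein that completes the cycle for long chains, had log2 fold changes of 0.03 (SE 0.06, 95% interval -0.09 to 0.16) and 0.09 (SE 0.10, 95% interval -0.13 to 0.30). Hadha levels were 7377 to 7700 in Pdcd1f/f and 7569 to 7777 normalized counts in Pdcd1f/fLysMcre libraries, overlapping, and the 95% interval of its difference lies above that of Cpt1a. Hadh, the 3-hydroxyacyl-CoA dehydrogenase for shorter chains, had 2309 to 2385 against 2189 to 2268 normalized counts. Its groups were separate at a log2 fold change of only -0.07 (SE 0.06), which did not pass. Echs1, the short-chain enoyl-CoA hydratase, had a log2 fold change of -0.17 (SE 0.08, edgeR adjusted p = 0.228) and passed the test with the offsets (-0.18, edgeR adjusted p = 0.0243). Acaa2, the mitochondrial thiolase, had a log2 fold change of -0.14 (SE 0.07, edgeR adjusted p = 0.240). The auxiliary enzymes of unsaturated chains, the isomerases Eci1 and Eci2 and the dienoyl-CoA reductase Decr1, had log2 fold changes of -0.04, 0.0047 and -0.009 and overlapped between the genotypes.

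Electrons leave the acyl-CoA dehydrogenases through electron transfer flavoprotein, made of the subunits Etfa and Etfb, and its oxidoreductase Etfdh. Etfb had 449, 590 and 547 normalized counts in Pdcd1f/f and 434, 350 and 432 in Pdcd1f/fLysMcre libraries. All of the latter were below the controls, although Pdcd1f/f replicate 1 lay closer to the Pdcd1f/fLysMcre libraries than to its own group. The log2 fold change was -0.38 (SE 0.13, edgeR adjusted p = 0.113), and it was -0.49 (edgeR adjusted p = 0.0123) without that replicate and -0.27 (edgeR adjusted p = 0.0385) with the offsets. Leaving out any 1 of the other libraries gave edgeR adjusted p of 0.122 to 0.399 for Etfb. The partner subunit Etfa had 5283, 4995 and 4699 against 5038, 5310 and 5022 normalized counts, overlapping, with a log2 fold change of 0.04 (SE 0.07). Etfdh was at -0.02 (SE 0.07).

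The 5 peroxisomal genes had the lowest median of the groups by role, with a log2 fold change of -0.37. It was -0.20 with the offsets for GC content and length, still the lowest of the groups, and -0.34 without both libraries that stood apart. Of the 5 genes 1 passed the edgeR test, where 5.43% of all genes did. At an unadjusted p under 0.05 there were 4 (80%, against 24.2% of all genes). With the offsets 3 were called, where 20.0% of all genes were. Without both libraries that stood apart, and without Pdcd1f/f replicate 1, it was 3 as well, where 26.2% and 21.6% were. Without any 1 of the other libraries 0 were called, where 1.51% to 3.56% were. Acox3 (ENSMUSG00000029098, chromosome 5, 35583040 to 35615352, plus strand), an acyl-CoA oxidase for branched chains, had 2116, 2344 and 2468 normalized counts in Pdcd1f/f and 1885, 1603 and 1871 in Pdcd1f/fLysMcre replicates 1 to 3. The groups were separate, though Pdcd1f/f replicate 1 and Pdcd1f/fLysMcre replicate 1 lay near each other. Mean levels fell from 2309 ± 178 to 1786 ± 159 (SD, n = 3 each), a change of -22.5% and a log2 fold change of -0.37 (SE 0.09, 95% interval -0.56 to -0.17, edgeR adjusted p = 0.0385). Of the 6 analyses that left out 1 library, only that without Pdcd1f/f replicate 1 kept the call (-0.44, edgeR adjusted p = 0.00414). The edgeR adjusted p was 0.184 without Pdcd1f/f replicate 2, 0.145 without Pdcd1f/f replicate 3, and 0.111, 0.118 and 0.058 without Pdcd1f/fLysMcre replicates 1, 2 and 3. An annotated antisense gene, 4931431C16Rik, overlaps Acox3, and whether reads were counted by strand is not given in the sources used here.

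Acaa1a, the peroxisomal thiolase, had 3198, 4115 and 4451 normalized counts in Pdcd1f/f and 3091, 2660 and 3290 in Pdcd1f/fLysMcre libraries. Pdcd1f/f replicate 1 fell within the range of the other genotype, so the groups overlapped. The log2 fold change was -0.38 (SE 0.12, edgeR adjusted p = 0.0915), and it passed without Pdcd1f/f replicate 1 (-0.51, edgeR adjusted p = 0.00195), with the offsets (-0.20, edgeR adjusted p = 0.00546) and with the replicate number as a block (-0.37, edgeR adjusted p = 0.0427), in 8 of 18 alternatives in all. Leaving out any 1 of the libraries other than Pdcd1f/f replicate 1 gave edgeR adjusted p of 0.0866 to 0.311. The gene overlaps Myd88 and Slc22a14 on the other strand and has the near copy Acaa1b, which had at most 5.59 normalized counts. Ehhadh, the peroxisomal bifunctional enzyme, had 163, 133 and 169 against 138, 114 and 100 normalized counts, which overlapped, with a log2 fold change of -0.40 (SE 0.17, edgeR adjusted p = 0.180). Hsd17b4, the second bifunctional enzyme, had 4593 to 4931 against 4115 to 4394 normalized counts. Its groups were separate, with a log2 fold change of -0.17 (SE 0.06, edgeR adjusted p = 0.133), which passed without Pdcd1f/f replicate 1 (-0.20, edgeR adjusted p = 0.0387) and with the offsets (-0.18, edgeR adjusted p = 0.00756). Hsd17b4 had edgeR adjusted p of 0.164 to 0.387 when any 1 of the other libraries was left out. Crot, which hands shortened chains over to carnitine for export to mitochondria, was at 0.05 (SE 0.08) and overlapped.

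**Figure D3:**
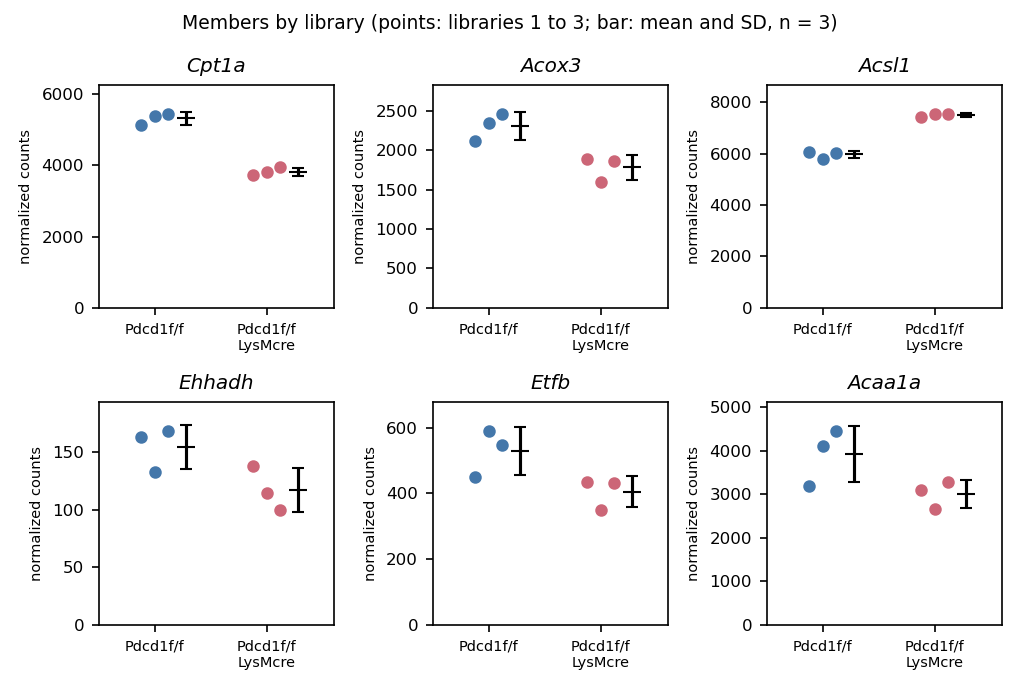
Normalized counts (y axis, starting at 0) of Cpt1a, Acox3, Acsl1, Ehhadh, Etfb and Acaa1a in the libraries of each genotype; points are libraries 1 to 3 and bars give the mean and SD (n = 3). Cpt1a, Acox3, Acsl1 and Etfb are separate between the genotypes, while Ehhadh and Acaa1a overlap.

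The PPAR receptors did not pass the test. Ppara, the receptor of liver and muscle oxidation, had 3, 0 and 2 raw counts in Pdcd1f/f and 4, 0 and 3 in Pdcd1f/fLysMcre libraries, too few to compare. Ppard, the broadly expressed receptor, had 1449, 1718 and 1835 normalized counts in Pdcd1f/f and 1493, 1189 and 1618 in Pdcd1f/fLysMcre libraries. The groups overlapped, and the log2 fold change was -0.22 (SE 0.12, 95% interval -0.49 to 0.05, edgeR adjusted p = 0.307). It was -0.05 with the offsets, and -0.19 (edgeR adjusted p = 0.0429) without both libraries that stood apart. Without 1 library the value for Ppard ranged from -0.32 to -0.10, the latter without Pdcd1f/fLysMcre replicate 2. Pparg, the receptor of fat cells and alveolar macrophages, had 308, 333 and 281 against 290, 273 and 239 normalized counts, overlapping, with a log2 fold change of -0.20 (SE 0.12, 95% interval -0.47 to 0.07, edgeR adjusted p = 0.343). Ppargc1b, which encodes PGC-1β, a coactivator of mitochondrial genes, had 928, 917 and 1011 against 913, 902 and 1025 normalized counts. Its groups overlapped, and its log2 fold change of -0.0063 (SE 0.09, 95% interval -0.19 to 0.18) became 0.15 with the offsets (edgeR adjusted p = 0.136).

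**Figure D4:**
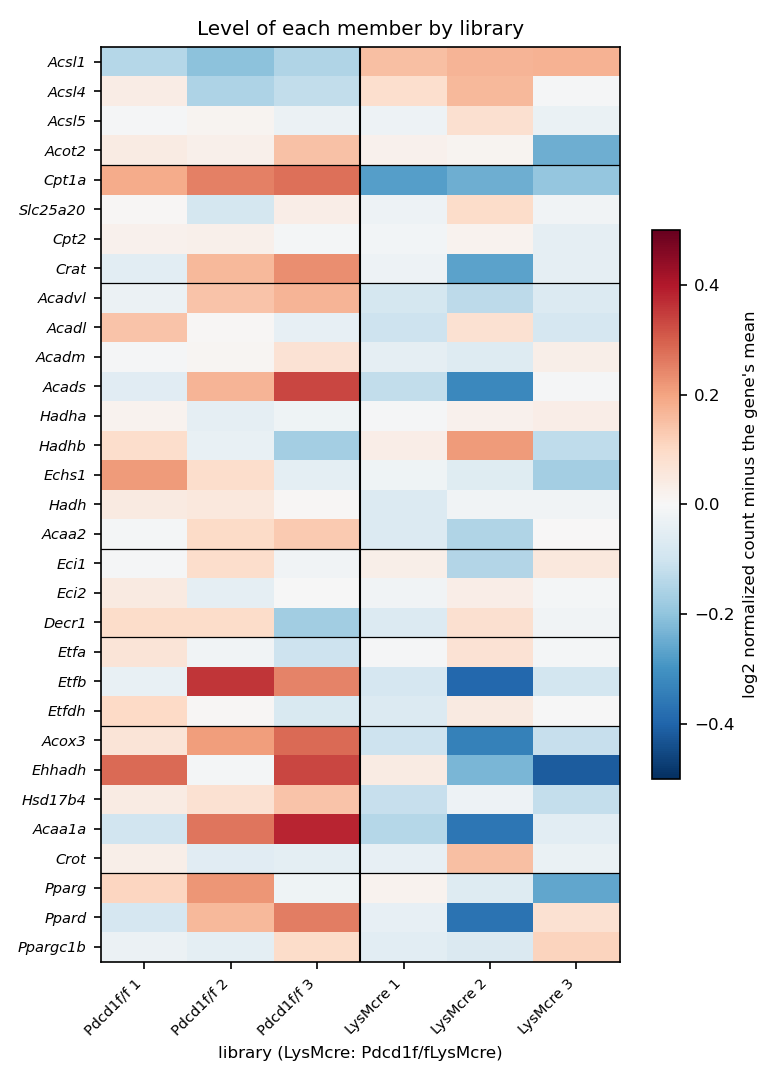
Log2 normalized count of each of the 31 genes in each library minus the gene's mean over the 6 libraries (colour scale, red above and blue below the mean), with lines between roles. The row of Cpt1a is red in all Pdcd1f/f and blue in all Pdcd1f/fLysMcre libraries and that of Acsl1 the reverse, while rows such as Acaa1a and Acads are blue in Pdcd1f/f replicate 1 as well.

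Levels between genes were compared per kb of exon. The divisor was the exon length annotated for the gene, such as 1835 bases for Etfa, 7642 for Cpt1a and 10483 for Acsl1. Which transcripts of a gene were present was not tested, so the order of genes on this scale depends on the annotated lengths. On this scale of normalized counts per kb, in the Pdcd1f/f libraries, Etfa was highest with a mean of 2721, followed by Acadl with 2089, Acsl5 with 1915 and Acaa2 with 1881. Cpt1a stood at 696, below Hadha at 862 and above Acsl1 at 570, Hadhb at 417, Slc25a20 at 395 and Cpt2 at 365. In the Pdcd1f/fLysMcre libraries the level of Cpt1a was 501 and that of Acsl1 716. With the annotated lengths as divisor, Cpt1a and Acsl1 thus changed places on this scale. In normalized counts not divided by length, Acsl1 was above Cpt1a in both genotypes. Its means were 5975 against 5321 in Pdcd1f/f and 7511 against 3827 in Pdcd1f/fLysMcre libraries. The lowest genes that were tested were Ehhadh at 52.0 and Pparg at 104 in Pdcd1f/f. Ppard, at 222, was above Pparg on this scale.

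Promoter sequence is shown for the 3 genes that passed the test, to set their starts side by side. The windows are up to 250 bases before the RefSeq start on the gene's strand (GRCm38.p6), that of Cpt1a stopping before the annotated exon. The window of Cpt1a lies inside the gene as GENCODE annotates it, which starts further upstream, and that of Acox3 overlaps an exon of the antisense gene 4931431C16Rik. Capitals mark matches on either strand to AGGTCA, the 6-base motif bound by PPAR, RXR and other nuclear receptors.
Cpt1a, chr19:3323051-3323284, plus strand: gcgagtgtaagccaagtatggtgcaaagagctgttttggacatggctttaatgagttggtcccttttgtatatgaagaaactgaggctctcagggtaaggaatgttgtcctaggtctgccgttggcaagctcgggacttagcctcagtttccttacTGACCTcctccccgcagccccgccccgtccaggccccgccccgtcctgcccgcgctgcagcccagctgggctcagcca
Acox3, chr5:35582784-35583033, plus strand: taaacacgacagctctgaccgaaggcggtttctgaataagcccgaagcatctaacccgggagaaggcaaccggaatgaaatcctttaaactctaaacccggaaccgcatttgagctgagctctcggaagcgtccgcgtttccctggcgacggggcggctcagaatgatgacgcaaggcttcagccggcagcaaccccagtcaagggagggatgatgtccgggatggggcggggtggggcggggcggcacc
Acsl1, chr8:46470787-46471036, plus strand: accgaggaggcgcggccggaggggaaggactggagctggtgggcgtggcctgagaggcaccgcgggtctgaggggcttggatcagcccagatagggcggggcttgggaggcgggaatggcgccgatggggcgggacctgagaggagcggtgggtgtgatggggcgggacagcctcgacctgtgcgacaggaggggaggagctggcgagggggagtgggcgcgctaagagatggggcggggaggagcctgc
The window of Cpt1a held 1 match, read as TGACCT on the printed strand, at positions -94 to -89 from the start. Those of Acox3 and Acsl1 held none. Their GC content was 58.1%, 60.0% and 72.0%. Acsl1 has another RefSeq start, inside the gene, whose window (chr8:46490716-46490965) held no match and had a GC content of 48.4%. Windows of 250 bases were found for 27 of the 32 genes, 30 windows in all, and 6 of them (20.0%) held AGGTCA on either strand, in Acadm, Acadvl, Cpt1a, Echs1 and Pparg, against 14.0% of 32851 windows of all genes. The PPAR response element, AGGTCA repeated in the same direction with any 1 base between the copies, was found in none of the 30 windows and in 0.033% of all. With up to 2 mismatches it was found in 6.67%, those of Echs1 and Etfa, against 3.24% of all. The longer motif TCAAGGTCA of the estrogen-related receptors, which contains AGGTCA, was in none of the 30 and in 0.387% of all windows. These matches describe letters in a short window and not binding.

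The other genes of the pathway were read from the same fit, in lists that do not hold any of the 32. Of the other mitochondrial oxidation genes 13 of 14 were tested and 0 passed the edgeR threshold (1 at an unadjusted p under 0.05), with a median log2 fold change of -0.06. Of the other peroxisomal genes 15 of 19 were tested and 0 passed (3 at an unadjusted p under 0.05), with 14 of 15 negative (93.3%, against 50.4% of all genes) and a median of -0.16. Of the other acyl-CoA synthetases and thioesterases 10 of 13 were tested and 0 passed (3 at an unadjusted p under 0.05), with a median of -0.16. Of the genes that set malonyl-CoA and AMPK activity, which act on CPT1A, all 12 were tested and 0 passed (3 at an unadjusted p under 0.05), with a median of -0.15. At that unadjusted p the 4 lists held 7.69%, 20%, 30% and 25% of their genes, against 24.2% of all genes, and with the offsets their medians were -0.03, -0.11, -0.09 and -0.07. Across these 4 lists edgeR called 0 of 50 genes, where 5.43% of all genes were called. DESeq2 with Benjamini-Hochberg adjustment called 0, 0, 1 and 0 genes of the 4 lists. That was 1 of 50, where 12.8% of all genes with an adjusted p were called. The 1 was Acss1, an acetyl-CoA synthetase of mitochondria (lower, named after its values were seen). Limma-trend called 0 in each list, 0 of 52 genes where 4.57% of all genes were called. Without both libraries that stood apart the 4 lists had 0, 2, 3 and 4 calls, 9 of 50 genes where 26.2% of all genes were called, and with the offsets 0, 2, 2 and 0, 4 of 50 where 20.0% were.

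Among the partners and cofactors of the PPARs, 16 of 18 were tested, and 2 were lower and 0 higher with edgeR, where 5.43% of all genes were called. DESeq2 called 3 lower and 0 higher (12.8% of all genes with an adjusted p called), the offsets 5 and 0 (20.0%), and leaving out both libraries that stood apart 4 and 2 (26.2%), so the list's count rose together with that of all genes. Lpin1, which encodes lipin-1, a phosphatidate phosphatase that also acts as a coactivator of PPARα and PGC-1α, had 763, 751 and 740 normalized counts in Pdcd1f/f and 484, 438 and 365 in Pdcd1f/fLysMcre libraries. The groups were separate, and Lpin1 fell by a log2 fold change of -0.81 (SE 0.11, edgeR adjusted p = 0.00239), which passed without any 1 of the libraries. Rxra, the DNA partner of the PPARs, had 1768, 2036 and 2257 against 1510, 1430 and 1595 normalized counts, which were separate, and fell by a log2 fold change of -0.42 (SE 0.09, edgeR adjusted p = 0.0313), which was -0.24 with the offsets (edgeR adjusted p = 0.00221). The call of Rxra was lost without Pdcd1f/f replicates 2 (edgeR adjusted p = 0.151) or 3 (edgeR adjusted p = 0.120) and without Pdcd1f/fLysMcre replicates 1 (edgeR adjusted p = 0.136) or 2 (edgeR adjusted p = 0.115). Ppargc1a, which encodes PGC-1α, was listed at 2.95 normalized counts or fewer in every library and was not tested.

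Textbook PPAR targets that are not part of oxidation itself changed in both directions. Of 16 listed, 10 were tested, 4 were lower and 1 was higher, against 3.01% and 2.42% of all genes, with a median log2 fold change of -0.39. The median depended on which genes were tested, with -0.19 over the 9 genes with at least 10 counts in every library and -0.62 over the 15 with at least 1 count, and the same 5 genes were called in each. Without Pdcd1f/f replicate 2 or without Pdcd1f/fLysMcre replicate 1 only Plin2 and Cd36 were called (2 of 10), with 1.51% of all genes called in each. Plin2, the coat protein of lipid droplets, had 28800, 32194 and 33164 normalized counts in Pdcd1f/f and 20199, 19570 and 21277 in Pdcd1f/fLysMcre libraries, a log2 fold change of -0.62 (SE 0.07, edgeR adjusted p = 0.00083). Ucp2, a mitochondrial carrier, had 35441, 42978 and 45606 against 27773, 24246 and 29572, a log2 fold change of -0.60 (SE 0.10, edgeR adjusted p = 0.00794). Angptl4, an inhibitor of lipoprotein lipase, had 168, 183 and 208 against 96.2, 93.3 and 114, a log2 fold change of -0.88 (SE 0.15, edgeR adjusted p = 0.00912). The libraries of these 3 genes were separate between the genotypes. The scavenger receptor Cd36, which takes up fatty acids and oxidized lipoproteins, went the other way, with 696, 667 and 672 against 1306, 1452 and 1143 normalized counts, separate, and a log2 fold change of 0.94 (SE 0.10, edgeR adjusted p = 0.00049). Cd36 and Plin2 passed without any 1 of the libraries. Ucp2 and Angptl4 lost the call without Pdcd1f/f replicate 2 (edgeR adjusted p = 0.0541 and 0.0537) and without Pdcd1f/fLysMcre replicate 1 (edgeR adjusted p = 0.0582 and 0.0632). The fifth gene called was Fabp4, a fatty acid chaperone, named after its values were seen, at -0.69 (SE 0.14, edgeR adjusted p = 0.0202). It lost the call without Pdcd1f/f replicate 2 (edgeR adjusted p = 0.0971) and without Pdcd1f/fLysMcre replicates 1 (edgeR adjusted p = 0.0744) or 3 (edgeR adjusted p = 0.0513). Pdk4, a target of PPARα in other tissues, had at most 4.47 normalized counts and was not tested.

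Fat and muscle express many of these genes, and their markers were set beside the result. Over all genes 5.43% were called by edgeR, and 24.2% were at an unadjusted p under 0.05. The summed level of 6 adipocyte markers was at most 1.12 normalized counts in Pdcd1f/f and 2.95 in Pdcd1f/fLysMcre libraries, with Cidec and Lep at 0 in all. That of 6 skeletal muscle markers was 156 to 185 against 133 to 201, with Myh4 and Mb at 0 in all. Summed neutrophil markers were 1736 to 2237 against 2149 to 2310, with 0 of the 4 tested called by edgeR (1, Retnlg, at an unadjusted p under 0.05). Of the endothelial markers only Pecam1, which macrophages can express as well, was called, at a log2 fold change of -0.62 (edgeR adjusted p = 0.0034), while Cdh5, Kdr and Vwf overlapped at -0.009, 0.02 and -0.03; the sum of all 4 was 1961 to 2064 against 1614 to 1705. Of 6 fibroblast and tumour markers, with sums of 3066 to 3328 against 2922 to 3228, Col1a2 was called, with a change of -50.0% (edgeR adjusted p = 0.0121), and 2 of the 6 were at an unadjusted p under 0.05. The others overlapped, with log2 fold changes of -0.78 for Col1a1, -0.42 for Pdgfrb, -0.07 for Col3a1, 0.03 for Dcn and 0.05 for Pdgfra. Col1a1 was called too without Pdcd1f/f replicate 1 and without both libraries that stood apart, and Col1a2 lost its call without Pdcd1f/f replicate 3 or Pdcd1f/fLysMcre replicate 1. Cd79b, the 1 B cell marker tested of 4, had 164 to 198 against 115 to 141 normalized counts, separate at -0.52 (edgeR adjusted p = 0.067). Of 6 dendritic cell markers, with sums of 221 to 302 against 285 to 361, 3 were tested and 0 called (2 at an unadjusted p under 0.05), Flt3 at 0.67 and Zbtb46 at 0.69. Zbtb46 was called higher with the offsets and without both libraries that stood apart, and Flt3 without Pdcd1f/f replicate 1. With the offsets S100a8 (higher), Retnlg (lower) and Cd79b (lower) were called as well. The 7 T and NK cell markers summed to 589 to 662 against 526 to 623, of which Cd4 alone was tested, at -0.09. Whether the markers that moved between the genotypes, those of macrophages included, had a part in the level of Cpt1a was not tested.

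The log2 fold changes of the 31 genes went with the GC content of their transcripts. Across genes, which share libraries and are not replicates, the Spearman coefficient was -0.54 over the 31 genes and -0.38 over all 14454 with a GC value. The 15 genes with a GC content above the median of 49.1% had a median log2 fold change of -0.19 with 14 negative, and the 16 others a median of -0.0022 with 8 negative. With offsets fitted per library for GC content and length, the coefficients were -0.11 and -0.04, and the medians were -0.09 with 11 negative and -0.04 with 12 negative, 23 of the 31 genes being negative against 45.6% of all genes. Without both libraries that stood apart by GC content the coefficients were -0.52 and -0.42, so the relation was present without these libraries as well. With these offsets Cpt1a was at -0.42, Acsl1 at 0.34 and Acox3 at -0.30, all past the edgeR threshold, and 7 of the 31 genes were called (6 lower), with 20.0% of all genes called. The split of all calls moved too, from 436 lower of 786 to 1173 lower of 2895. Values of GC-rich genes such as Acads, Crat, Acadvl, Acaa1a and Ppard were nearer 0 with the offsets, and that of Ppargc1b was positive.

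**Figure D5:**
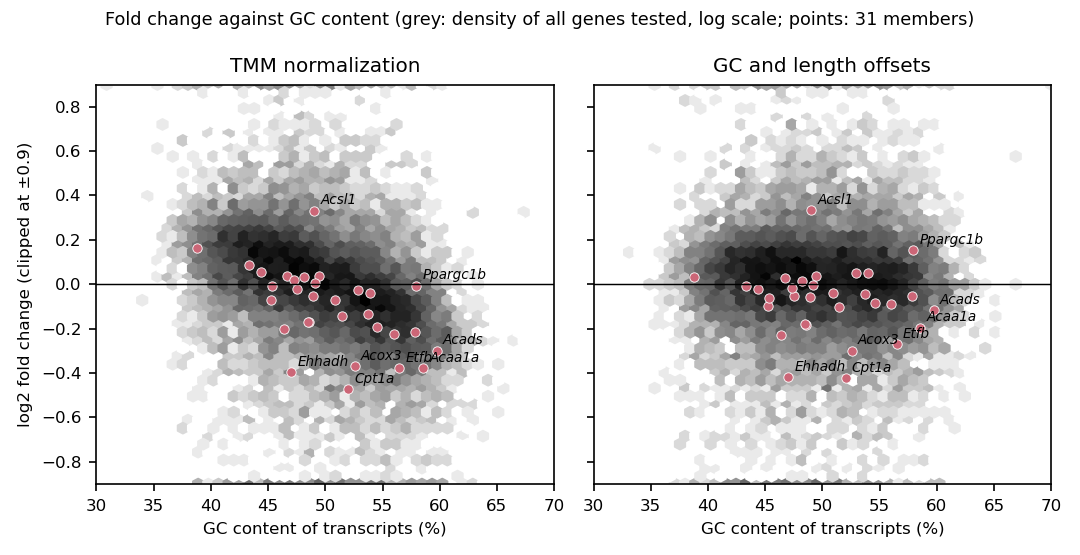
Log2 fold change (y axis, Pdcd1f/fLysMcre against Pdcd1f/f, clipped at the edges) against GC content of the transcripts in percent (x axis) for all genes (grey density, log scale) and the 31 genes (points), with TMM normalization at left and with offsets for GC content and length at right. The downward slope at left, with a Spearman coefficient of -0.54 over the 31 genes, is -0.11 at right, while Cpt1a and Acsl1 keep their distance from 0.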

How the data were processed

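TAMs of 3 Pdcd1f/f and 3 Pdcd1f/fLysMcre libraries were measured by stranded polyA RNA-seq, with genotype and replicate number taken from the labels. Raw counts of Ensembl genes were deposited by the authors, who made them with cutadapt 2.5, STAR 2.7.3a on GRCm38 and featureCounts of Subread 1.6.2 on Ensembl annotation. A normalized signal table of 16552 genes was deposited too, its values being the counts divided by a DESeq2 (1.24.0) size factor per library, between 0.895 and 1.08. Strand setting and handling of multi-mapped reads are not given in the sources used here, and reads of overlapping or near-identical genes are uncertain. Columns of per-sample values left out numbered 0.

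The raw counts were tested with edgeR 4.0.16 (R 4.3.3): filterByExpr (minimum count 10, minimum total 15), TMM, robust glmQLFit, glmQLFTest and Benjamini-Hochberg adjustment over 14469 genes. The standard error is the size of a log2 fold change over the root of its F statistic, and 95% intervals from each gene's degrees of freedom. The biological coefficient of variation was 8.92%. Total counts were 41833823 to 51417209 per library, and floors from them cover counting error only, not the spread between libraries. Symbols, exon lengths, positions and GC content came from GENCODE M21 (GRCm38), which paired 14461 tested IDs with a symbol. Members and gene lists were chosen with earlier results of these data known. Values in every library are given for the genes past the threshold, the PPAR genes, and the 3 of largest absolute change among those not past it, and from other pathway lists up to 4 called genes of smallest adjusted p. Further genes are given by range, value or library. Alternatives were RLE size factors, library size alone, 3 other count filters, DESeq2 1.42.0 with Benjamini-Hochberg or Storey adjustment (the latter computed here, without its package), limma-trend (limma 3.58.1) on log2(value + 1), a replicate block, GC and length offsets (loess, span 0.5) with and without the block, and leaving out libraries. Scripts were tested on simulated counts.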

Additional observations from a re-analysis of the deposited data

How the results depend on the processing

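Cpt1a kept its call and direction in all 18 alternatives, Acsl1 in 16 and Acox3 in 13. The 31 genes called numbered 6 (5 lower) with all genes of at least 1 count, 5 (4 lower) with DESeq2 and Storey q values, 7 (6 lower) with GC and length offsets, 7 (6 lower) with the offsets and the replicate block, and 11 (9 lower, 2 higher) without both libraries that stood apart by GC content. Over all genes these settings called 1951, 1950, 2895, 3086 and 3757, and DESeq2 with Benjamini-Hochberg adjustment 1599. Leaving out 1 library at a time gave 222 to 3181 calls over all genes, and 1 to 10 among the 31, with 1 to 8 lower and 0 to 2 higher; the cause was not tested. The median log2 fold change of the 31 genes was -0.0874 with library size alone, -0.0513 with the offsets, -0.0525 with the offsets and block, and -0.0939 to -0.0525 without 1 library. Over all genes the median was -0.0203 with library size alone, 0.0185 with the offsets and 0.0188 with offsets and block, against -0.00258 in the edgeR fit.

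The replicate block alone gave 4 calls among the 31 (Acaa1a added) and 1027 over all genes. Deviations of same-numbered libraries correlated at -0.0132, -0.0970 and 0.220, so the numbers were not taken to pair the libraries, and not every library correlated best with its own number.

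Signs near 0 depended on the setting. With the offsets, and with offsets and block, Cpt2 was at 0.0505 and 0.0505, Hadhb at -0.00636 and -0.00813, Eci1 at 0.0521 and 0.0527, Eci2 at -0.00232 and -0.00222, Acsl5 at -0.0186 and -0.0186, Ppargc1b at 0.154 and 0.155, and Crot at -0.0222 and -0.0233. With library size alone Eci2 was at -0.0133 and Acsl5 at -0.000186. That scaling shifts all genes together, from a median of -0.00258 to -0.0203, so these signs describe the scaling and not the 2 genes. Without both libraries Eci1 was at 0.00245, Acsl5 at -0.0248 and Ppargc1b at 0.00331. Without 1 library the ranges that crossed 0 were -0.0034 to 0.0582 for Slc25a20, -0.00567 to 0.160 for Hadhb, -0.0808 to 0.0221 for Eci1, -0.0145 to 0.0182 for Eci2, -0.0939 to 0.0356 for Decr1, -0.00459 to 0.0727 for Etfa, -0.0628 to 0.0179 for Etfdh, -0.0196 to 0.0355 for Acsl5, -0.0729 to 0.0364 for Ppargc1b and -0.0108 to 0.0864 for Crot.

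Without 1 library the log2 ratios ranged from -0.486 to -0.418 for Cpt1a to Cpt2, -0.548 to -0.464 to Slc25a20, -0.304 to -0.249 to Acadvl and -0.550 to -0.484 to Hadha, and from -0.143 to 0.0349 for Hadha to Hadhb. Depth limits Ppara, Ppargc1a and Pdk4, which could not be compared.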

Other observations

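Fatty acid synthesis, the opposite direction of the pathway, was read from a list of 13 genes, of which 12 were tested. Of these 1 was lower and 1 higher at an edgeR adjusted p under 0.05, where 5.43% of all genes were called, and the median log2 fold change was 0.09, or 0.05 with offsets for GC content and length. Fads1, the Δ5 desaturase that makes arachidonic acid, had 3703, 3890 and 3869 normalized counts in Pdcd1f/f and 2487, 2677 and 2620 in Pdcd1f/fLysMcre libraries, separate between the genotypes. Its log2 fold change was -0.56 (SE 0.06, edgeR adjusted p = 0.000855), and it passed without any 1 of the libraries. Scd2, a Δ9 desaturase, had 4892, 4707 and 5185 against 6058, 6463 and 5946, also separate, with a log2 fold change of 0.32 (SE 0.06, edgeR adjusted p = 0.0179). The call of Scd2 was lost without Pdcd1f/f replicate 2 (edgeR adjusted p = 0.134) and without Pdcd1f/fLysMcre replicates 1 (edgeR adjusted p = 0.0873) or 2 (edgeR adjusted p = 0.0631). Acaca, whose product is malonyl-CoA, was at 0.16 (SE 0.11) and Fasn, the fatty acid synthase, at -0.21 (SE 0.12), both overlapping between the genotypes.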
